A study of Danio rerio with 6 samples.

Results

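The 10 hypothalamic neuropeptide genes described here are oxt, avp, crhb, npy, agrp, trh, hcrt, gnrh3, galn and uts1. They were taken by symbol from a table of 24470 zebrafish genes, and each symbol stood on 1 gene ID. The 10 symbols were selected on the normalized counts of these same libraries, with the difference between treated and control larvae already known. The series asks what the Irg1l and itaconate axis does in neuromast development. Larvae given 4-octyl itaconate, an itaconate derivative that crosses cell membranes, were set against control larvae. All larvae carried the transgene Tg(Brn3C:mGFP), which labels hair cells with membrane-bound green fluorescent protein, and all were collected at 5 days post fertilization (dpf). There were 3 treated libraries, from larvae exposed to a 2.5 µM dose for 48 h starting at 3 dpf, and 3 control libraries. The sources used here name neither the controls' vehicle nor how many larvae went into a library. Nothing shows that the libraries came from separate clutches, so a p-value here covers the spread between libraries alone, and that spread may be technical.

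Neuropeptides are cut from larger precursors in dense-core granules of neurons and act on receptors in the plasma membrane of their target cells. In fish, as in other vertebrates, neurosecretory cells of the preoptic area and hypothalamus make the oxytocin, vasopressin and corticotropin-releasing hormone type peptides that act on the pituitary, the body's water balance and the stress axis. Cells nearer the base of the hypothalamus make the appetite peptides Npy and Agrp. The label hypothalamic is not exclusive: npy and galn are also used in other brain regions, gnrh3 marks cells of the terminal nerve, and uts1 is also known from the caudal neurosecretory system of fish.

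The labelled tissue was larvae, with no dissection named, and 14763897 to 23507208 reads were recovered per library. Across tested genes, treated replicate 1 correlated at 0.928 and 0.939 with the other treated libraries (Pearson r of log2 values, across genes). These 2 correlated at 0.972 with each other, and control libraries correlated at 0.971 to 0.974. The marker lists of neurons, glia, the eye, liver, pancreas, gut and skeletal muscle each had reads in every library. In RNA of such mixed tissue, fewer cells of a type and less RNA per cell cannot be told apart. Of the 20352 genes whose 6 libraries averaged 10 normalized counts or more, 69.3% passed limma's test at a Benjamini-Hochberg adjusted p under 0.05, 35.0% higher and 34.3% lower in treated larvae. The median log2 fold change over these genes was 0.01.

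Of the 10 neuropeptide genes, 7 were lower in every treated library than in any control library, agrp and gnrh3 were higher in every treated library, and hcrt was near the limit of detection. Groups that did not overlap were found for 74.1% of all tested genes, 36.8% lower and 37.4% higher in treated larvae. The 9 genes with enough reads had log2 fold changes (treated minus control, on log2 of the normalized count + 1) between -3.19 and 4.31, with a median of -2.52. Past the threshold of the fit over all genes lay 6 of these 9 downward and 2 upward, against 34.3% and 35.0% of all tested genes, and galn lay short of it. The members were picked with this contrast in view, so their own differences are given below as descriptions, with standard errors (SE) and without p-values.

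The preoptic neurosecretory genes were all lower in treated larvae. Transcripts of oxt, which encodes isotocin, the fish counterpart of oxytocin, stood at 14.6, 7.87 and 4.77 normalized counts in treated replicates 1, 2 and 3, against 110.3, 60.0 and 88.8 in control replicates 1, 2 and 3. The highest treated library lay far below the lowest control one. Group means were 9.07 ± 5.01 in treated and 86.4 ± 25.2 in control larvae (SD, n = 3 each), 9.52-fold lower, with a log2 fold change of -3.19 (SE 0.45). The treated values rest on 13, 7 and 5 reads.

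The related gene avp, for the precursor of vasotocin, the fish antidiuretic peptide, had the smallest difference of the neurosecretory genes. It had 6.73, 10.1 and 4.77 normalized counts in treated libraries, against 21.1, 15.6 and 29.6 in control libraries. The groups did not overlap, but the nearest libraries, treated replicate 2 and control replicate 2, rest on 9 and 14 reads. The mean was 3.06-fold lower in treated larvae, with a log2 fold change of -1.50 (SE 0.49).

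For crhb, which encodes corticotropin-releasing hormone, the peptide that drives the stress axis, values were 68.4, 24.7 and 21.95 in treated and 278.7, 304.4 and 265.0 in control libraries. Control libraries lay close together, with a coefficient of variation of 7.08%, whereas treated replicate 1 lay well above the other treated libraries and that group had 67.9%. The mean was 7.37-fold lower in treated larvae (log2 fold change -3.04, SE 0.40), and 12.1-fold lower without treated replicate 1. The related peptide gene uts1, for urotensin 1, a ligand of the same receptor family, stood at 24.7, 16.9 and 14.3 in treated and 136.4, 152.2 and 188.9 in control libraries. No library of one group came near the other, and the mean was 8.55-fold lower in treated larvae (log2 fold change -3.05, SE 0.30).

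Thyrotropin-releasing hormone, encoded by trh, acts on the pituitary and is also used as a transmitter elsewhere in the brain. Among control libraries its transcripts varied least of the set. They stood at 54.9, 59.6 and 43.0 normalized counts in treated and 317.8, 291.1 and 298.8 in control libraries. The control coefficient of variation was 4.54%, and the gap between the groups was far wider than the range within either. The mean was 52.5 ± 8.59 in treated and 303 ± 13.7 in control larvae (SD, n = 3 each), 5.76-fold lower, with a log2 fold change of -2.52 (SE 0.21).

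The 2 appetite genes of the set differed in direction. Neuropeptide Y, encoded by npy, raises food intake in fish and mammals. It had 91.9, 45.0 and 54.4 normalized counts in treated libraries, against 310.8, 398.9 and 367.9 in control libraries. All treated libraries lay below all control libraries, and the mean was 5.63-fold lower (log2 fold change -2.53, SE 0.28). In contrast agrp, for the agouti-related peptide that blocks melanocortin receptors and also raises food intake, had 53.8, 47.2 and 33.4 in treated libraries, against 12.0, 11.1 and 24.0 in control libraries. The lowest treated library lay above the highest control library, control replicate 3, and the mean was 2.85-fold higher in treated larvae (log2 fold change 1.51, SE 0.41). These values rest on 35 to 48 reads in treated and 10 to 17 reads in control libraries. In RefSeq's annotation the gene lies next to a pancreatic protease gene, ctrb1, that rose in the same larvae, and its part in these reads was not tested. In mice and in zebrafish some cells make both peptides, but the cells behind either gene's reads are not known here.

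**Figure D1:**
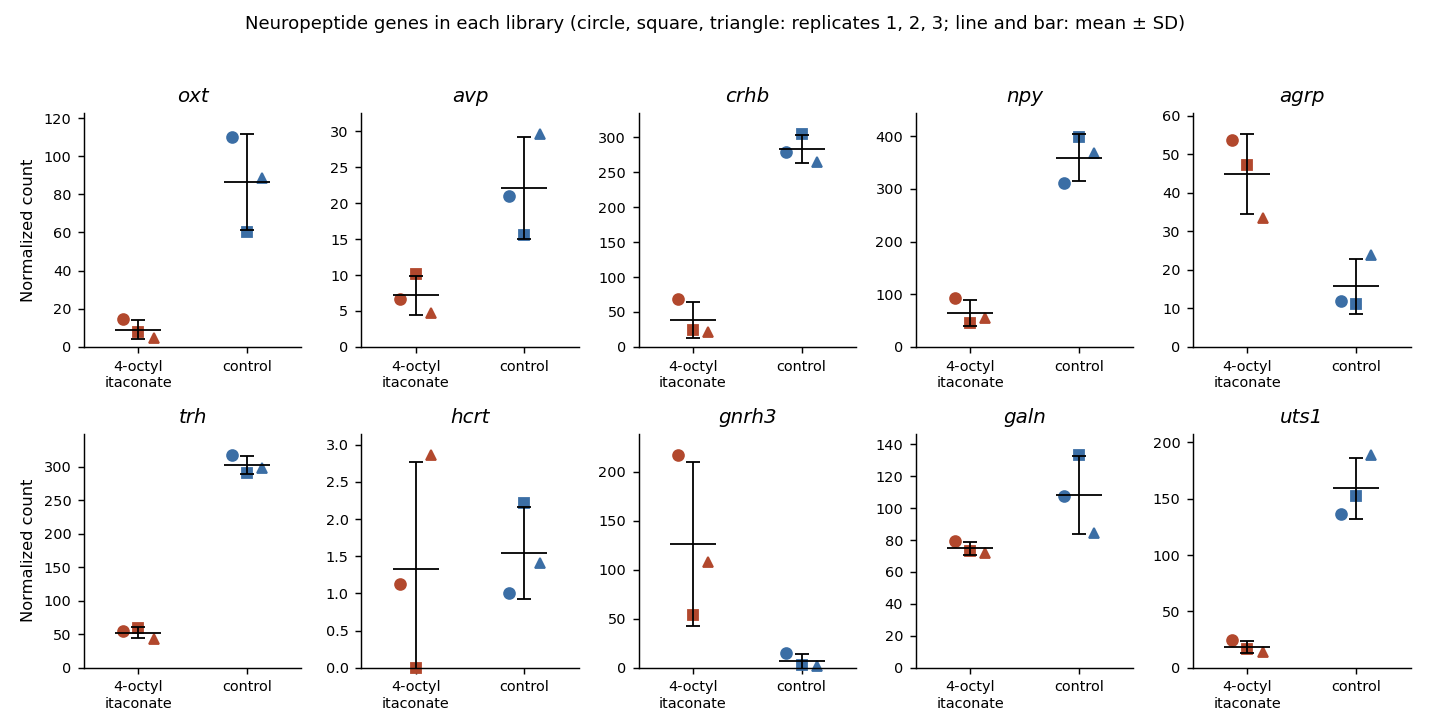
Normalized counts (linear axis from 0) of the 10 neuropeptide genes, with the 3 treated libraries left and the 3 control libraries right in each panel; the line and bar give the mean ± SD. Only agrp and gnrh3 lie higher in treated larvae, hcrt overlaps between groups, and the other 7 lie lower.

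The largest difference of the set was that of gnrh3, which encodes the gonadotropin-releasing hormone of the terminal nerve and, in zebrafish, of hypothalamic cells. It had 217.5, 54.0 and 107.9 normalized counts in treated libraries, against 15.0, 3.33 and 1.41 in control libraries. Treated values spread widely, with replicate 1 highest and replicate 2 lowest, yet each was above every control value. Control values rest on 15, 3 and 1 reads. Group means were 126 ± 83.3 in treated and 6.59 ± 7.38 in control larvae (SD, n = 3 each), a ratio of 19.2 and a log2 fold change of 4.31 (SE 0.75). The ratio depended on single libraries: it was 12.3 without treated replicate 1 and 53.3 without control replicate 1. Of all tested genes, 1.72% had a larger log2 fold change. Expression of galn, for galanin, a peptide of sleep, feeding and preoptic neurons, differed least of the 9. It stood at 79.6, 73.1 and 71.6 in treated and 107.3, 133.3 and 84.6 in control libraries, so that the groups did not overlap but lay close. The mean was 1.45-fold lower in treated larvae (log2 fold change -0.51, SE 0.25).

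The orexin precursor gene hcrt, whose peptides promote wakefulness, was read 1, 0 and 3 times in treated and 1, 2 and 1 times in control libraries. Both groups summed to 4 reads, a ratio of 0.922 after scaling by the libraries' normalization, with a 95% counting interval of 0.172 to 4.95. Differences inside this interval were not detectable at this depth, and hcrt was left out of the fit and of the summaries of the 9 other genes.

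Among the 9 genes, treated replicate 1 was the highest treated library for 7 and replicate 3 the lowest for 7, while each control library was the highest for 3. Treated replicate 1 is the library that correlated least with the other treated ones. Its part in the spread of oxt, crhb, npy and gnrh3 was not tested, but the 9 log2 fold changes kept their signs without it, at -3.57 for oxt, -1.48 for avp, -3.54 for crhb, -2.83 for npy, 1.37 for agrp, -2.56 for trh, 3.81 for gnrh3, -0.55 for galn and -3.26 for uts1.

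Neuron markers fell in the same larvae. Of 32 tested neuron markers, 26 fell and none rose by limma, with a median log2 fold change of -3.004. Their sum took 0.0590% to 0.115% of normalized counts in treated libraries and 0.711% to 0.766% in control libraries, 8.53-fold lower. The marker genes with the smallest p were rtn1b, chata, stmn2a and syt1a, with log2 fold changes of -3.45, -3.59, -2.97 and -4.04 (limma adjusted p of 1.17e-06, 1.28e-06, 1.57e-06 and 1.81e-06). The lists, like the members, were chosen with earlier results of these data known, so limma p-values of their genes are not independent support. At 0 in a control library stood syt1b, in all 3, and slc18a2, in replicate 2, and no neuron marker stood at 0 in a treated library. Of 14 glia markers 8 fell and 2 rose, and of 18 eye markers 16 fell and 1 rose. These counts and that of the neuron markers stand against 34.3% fallen and 35.0% risen over all tested genes. Glia markers took 0.108% to 0.137% in treated and 0.298% to 0.334% in control libraries, and eye markers took 0.0835% to 0.343% in treated and 0.845% to 1.39% in control libraries. All 14 liver, 18 pancreas and gut, and 17 skeletal muscle marker genes rose, against 35.0% of all tested genes. Liver markers took 1.86% to 1.95% in treated and 0.0510% to 0.0643% in control libraries, and pancreas and gut markers 1.01% to 1.82% in treated and 0.0180% to 0.0253% in control libraries. Muscle markers took 13.3% to 15.8% in treated and 1.94% to 2.01% in control libraries. The part of these tissues in the peptide values was not tested beyond the ratios that follow.

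Set against the summed neuron markers of the same library, oxt, crhb, npy and uts1 overlapped between groups. Per 100000 normalized counts of neuron markers, oxt had 54.7 ± 34.3 in treated and 57.9 ± 14.2 in control larvae, and uts1 had 113 ± 43.8 in treated and 108 ± 20.1 in control larvae (SD, n = 3 each). The ratios for crhb and npy were 1.24 and 1.64, treated over control. For npy the overlap rests on treated replicate 2, with 594, 193 and 411 in treated and 200, 284 and 249 in control libraries. That library had the largest neuron marker sum of the treated ones, 23356 against 15464 and 13236 in replicates 1 and 3. Treated replicate 1 was the highest library for oxt and crhb on this scale, and without it their log2 ratios were -0.73 and -0.50, against -0.08 and 0.31 with it. The other 5 tested genes lay higher in every treated library than in any control library: trh 1.52-fold, avp 2.76-fold, galn 6.19-fold, agrp 25.2-fold and gnrh3 189-fold. That of gnrh3 depended on single libraries, with a log2 ratio of 6.92 without treated replicate 1 and 8.94 without control replicate 1, against 7.56 with all libraries. For galn the ratio was 515, 313 and 541 per 100000 in treated libraries, against 68.9, 94.9 and 57.2 in control libraries. These ratios are descriptions, since they use the contrast that chose the genes. The neuron marker sum was itself 8.53-fold lower in treated larvae. A gene with unchanged normalized counts would therefore lie higher on this scale. The ratios of trh, avp and galn lay below 8.53. How many of all tested genes lay higher on this scale was not counted, so these 5 genes cannot be set against a background share.

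The choice of denominator moved some of these ratios. Relative to the summed genes of peptide processing and dense-core granules, a denominator added after the values had been seen, uts1 lay lower in every treated library (203 ± 21.4 per 100000, against 297 ± 62.3 in control larvae, 1.46-fold lower). On this scale trh, npy, crhb and oxt overlapped, with ratios of 1.04, 1.05, 0.764 and 0.594, treated over control. In every treated library avp, galn, agrp and gnrh3 lay higher, by 1.92-fold, 4.20-fold, 16.7-fold and 114-fold. For avp the gap was narrow. Its nearest libraries, treated replicate 1 at 61.4 and control replicate 3 at 57.4 per 100000, rest on 6 and 21 reads of avp. This denominator was itself 5.93-fold lower in treated larvae, and the ratios of avp and galn lay below that fold. How many of all tested genes lay higher relative to it was not counted, so no background share stands beside these genes. On this scale agrp was even across treated libraries, at 491, 511 and 472 per 100000, against 21.7, 20.3 and 46.5 in control libraries.

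**Figure D2:**
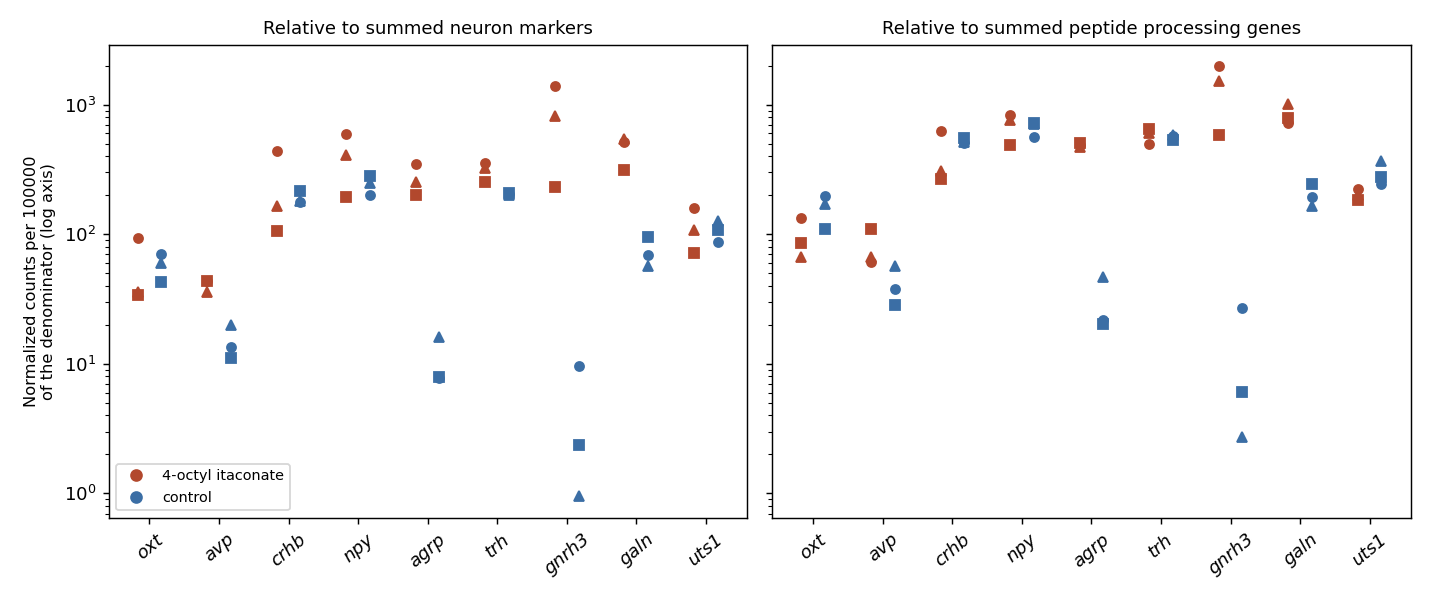
Values of 9 neuropeptide genes per 100000 normalized counts of the summed neuron markers (left panel) and of the summed peptide processing genes (right panel), on a log axis, with treated libraries left of control libraries for each gene and marker shapes for replicates 1, 2 and 3. Relative to either denominator avp, agrp, gnrh3 and galn lie higher in all 3 treated libraries, avp only narrowly in the right panel, while oxt, crhb and npy overlap. The denominators were themselves lower in treated larvae, by 8.53-fold (neuron markers) and 5.93-fold (processing genes). The share of all tested genes that lies higher on these scales was not counted.

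Receptors and binding proteins of these peptides were mostly too low to test in these larvae. Of 35 entries written, 33 were in the table and 10 passed the filter. By limma 6 of these fell, 1 rose and 3 did not pass, against 34.3% fallen and 35.0% risen over all tested genes. The median log2 fold change of the 10 was -1.42. Without the filter on low values the median of the receptor list was -0.39. The galanin receptor gene galr2b fell 9.34-fold, with 29.1, 36.0 and 28.6 normalized counts in treated libraries, against 295.8, 305.6 and 274.9 in control libraries (log2 fold change -3.19, SE 0.22, limma adjusted p = 4.40e-06). Its groups lay far apart, with every treated library well below every control library. The other galanin receptor genes were galr1a, which fell 3.81-fold (limma adjusted p = 0.0113, and 0.0532 without control replicate 2), and galr1b, at -0.89 on the log2 scale, which lay short of the threshold (limma adjusted p = 0.0987).

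In the corticotropin-releasing hormone system the binding protein gene crhbp, whose product traps the peptide outside cells, fell to 295, 241 and 247 in treated libraries, against 650, 756 and 675 in control libraries (2.66-fold lower, limma adjusted p = 6.36e-05). The receptor gene crhr2 was read 34, 0 and 2 times in treated and 133, 84 and 42 times in control libraries, so that treated replicate 1 alone held most treated reads. It passed by limma (log2 fold change -4.24, SE 1.14, adjusted p = 0.00917) but not by DESeq2 (adjusted p = 0.123). The main stress-axis receptor gene crhr1 lay short of the threshold, with a difference of -0.51 (SE 0.32, limma adjusted p = 0.184), and control replicate 3 lay inside the treated range. Without that library it passed, at -0.82 (limma adjusted p = 0.0405).

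Vasotocin receptor genes differed in direction. Of the pair of V1a-type genes, avpr1ab fell 2.60-fold to 55.4 ± 21.6 in treated larvae, against 144 ± 6.22 in control larvae, and avpr1aa rose 3.99-fold to 21.3 ± 5.13, against 5.33 ± 4.39 in control larvae (SD, n = 3 each; limma adjusted p = 0.00231 and 0.0205). The log2 fold change of avpr1aa was 2.08, and it missed the threshold without treated replicate 3 (2.11, limma adjusted p = 0.0546) and after quantile normalization (1.59, limma adjusted p = 0.0534). The V2-type gene avpr2ab, too low to test, was read 27 times in treated and 2 times in control libraries, a ratio of 12.4 with a 95% counting interval of 3.13 to 108. The isotocin receptor genes oxtr and oxtrl stayed at or below 7.64 normalized counts in every library. Of these oxtr was higher in every treated library, at 3.36, 2.25 and 3.82, against 0, 0 and 1.41 in control libraries. These rest on 9 treated reads and 1 control read, a ratio of 8.29 with a 95% counting interval of 1.15 to 364, and the groups of oxtrl overlapped.

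In the melanocortin system, on which agrp acts, the accessory protein gene mrap2a fell 7.05-fold, to 29.1, 33.7 and 40.1 in treated libraries, against 272, 199 and 255 in control libraries (log2 fold change -2.78, SE 0.24, limma adjusted p = 1.52e-05). Its product is known in zebrafish to modulate the receptor Mc4r. The receptor gene mc4r itself was too low to test, at 1.12, 1.12 and 2.86 in treated libraries, against 18.0, 11.1 and 11.3 in control libraries. Every treated value lay below every control value, on 5 reads against 36. The receptor gene mc5ra lay at 0.20 on the log2 scale (limma adjusted p = 0.752), and its sign turned without treated replicate 3 (-0.07), without control replicate 1 (-0.27) and after quantile normalization (-0.20). Both gonadotropin-releasing hormone receptor genes with the most control reads were lower in every treated library while their ligand gene gnrh3 was higher. The gene gnrhr4 stood at 0, 0 and 1.91 in treated and 23.1, 13.3 and 12.7 in control libraries, on 2 and 44 reads, a ratio of 0.0419 with a 95% counting interval of 0.00492 to 0.161. No read of gnrhr2 was found in treated libraries, against 18 reads in control libraries, a ratio of 0 with a 95% counting interval of 0 to 0.210. Intervals cover counting error only. The genes gnrhr4 and gnrhr2 were not tested.

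The other receptor genes untested for low values belonged to Npy (npy1r, npy2r, npy2rl, npy4r, npy7r, npy8ar and npy8br), Trh (trhra, trhrb and trhr2), orexin (hcrtr2), vasotocin (avpr2aa and avpr2l), melanocortin (mc3r and mc5rb), Gnrh (gnrhr1) and galanin (galr2a). Of these, npy1r was lower in every treated library, at 1.12, 1.12 and 0 normalized counts, against 6.02, 3.33 and 9.87 in control libraries, on 2 and 16 reads, a ratio of 0.115 with a 95% counting interval of 0.0129 to 0.490. In the other direction npy8br had 4.48, 5.62 and 4.77 normalized counts in treated libraries, against 4.01, 2.22 and 1.41 in control libraries, on 14 and 7 reads. The groups of the other genes in this paragraph overlapped. Among them npy2r had 5 treated and 25 control reads, a ratio of 0.184 with a 95% counting interval of 0.0551 to 0.490. Its overlap rests on control replicate 3, at 2.82 normalized counts against 2.86 in treated replicate 3.

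**Figure D3:**
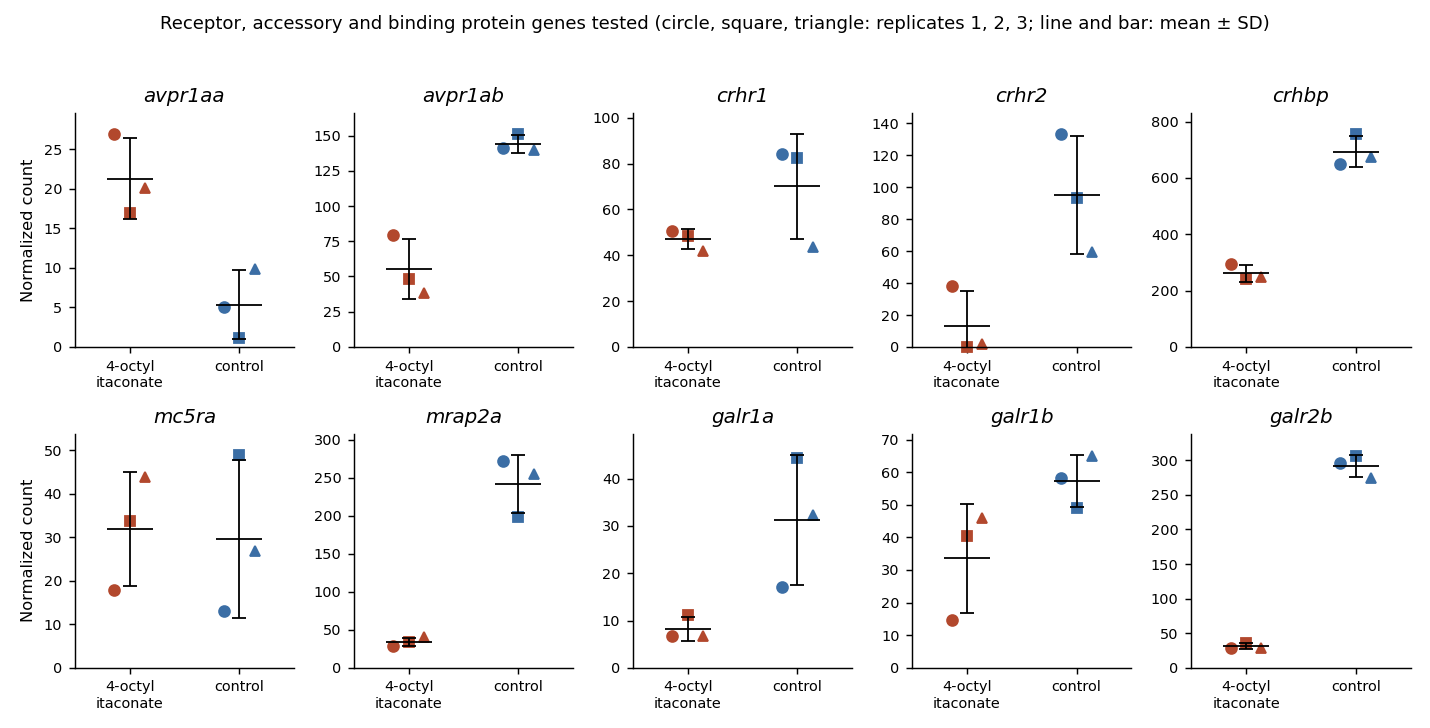
Normalized counts (linear axis from 0) of the 10 receptor, accessory and binding protein genes that passed the filter, treated libraries left and control libraries right, with the mean ± SD. Treated libraries lie below control libraries for avpr1ab, crhr2, crhbp, mrap2a, galr1a, galr1b and galr2b and above them for avpr1aa, while crhr1 and mc5ra overlap.

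Most genes of peptide processing and dense-core granules fell, but the convertase and amidating enzyme genes named below did not pass downward. Of 27 tested genes of peptide processing and dense-core granules 20 fell, 3 rose and 4 did not pass by limma. Their median log2 fold change was -2.27. Among all tested genes 34.3% fell and 35.0% rose. Carboxypeptidase E, which trims the cut peptides and is encoded by cpe, fell 6.86-fold, and the granule membrane gene ptprna fell 15.8-fold (limma adjusted p = 2.64e-06 and 6.72e-07). The granule priming gene cadpsb fell to 298, 348 and 238 normalized counts in treated libraries, against 6436, 5079 and 5327 in control libraries, 19.1-fold lower, and the calcium sensor gene syt9a fell 13.1-fold (limma adjusted p = 7.68e-07 and 2.11e-06). The 3 that rose were pcsk2, a prohormone convertase gene, 1.93-fold, qpct, for the enzyme that forms the pyroglutamate end of peptides such as those of trh and gnrh3, 3.21-fold, and hid1b, a granule biogenesis gene, 7.18-fold (limma adjusted p = 0.0406, 0.000376 and 0.00407). These 3 were named after their values were seen, as was hid1a, the gene paired with hid1b, which fell 2.24-fold (limma adjusted p = 0.0134). Neither the amidating enzyme gene pam, at -0.24 on the log2 scale, nor the convertase gene pcsk1, at 0.66, passed (limma adjusted p = 0.147 and 0.152). All treated libraries of pam still lay below its control libraries, at 1134, 1353 and 1150 against 1478, 1373 and 1422.

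Transcription factor genes of the hypothalamus fell in 33 of 37 tested cases, against 34.3% of all tested genes. The list holds broader genes such as the forebrain gene otx2b, and 26 of 32 neuron markers and 16 of 18 eye markers also fell. The median log2 fold change of these transcription factor genes was -2.70, below the -2.52 of the neuropeptide genes and above the -3.004 of the neuron markers. The difference between these medians was not tested. Among them otpb, needed in zebrafish for oxt, avp and crhb neurons, fell 11.2-fold, to 93.0, 178 and 107 normalized counts in treated libraries, against 1552, 1200 and 1474 in control libraries (limma adjusted p = 5.19e-06). The POU domain genes pou3f2a and pou3f2b, whose mammalian counterpart acts in the same neuroendocrine cells, fell 12.6-fold and 13.7-fold, and the forebrain gene otx2b fell 7.32-fold (limma adjusted p = 1.85e-06, 1.67e-06 and 5.85e-06). The genes that rose were nr5a5, 8.62-fold, and arxa, 3.16-fold (limma adjusted p = 0.000164 and 0.00122), and those that did not pass were nr0b1 and tbx2b; these 4 were named after their values were seen.

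Of 50 other neuropeptide genes found of 56 written, 41 were tested. By limma 22 fell, 7 rose and 12 did not pass, with a median log2 fold change of -1.12. Over all tested genes 34.3% fell and 35.0% rose, so calls in both directions are not particular to these genes. The tachykinin gene tac1 fell 5.36-fold, to 131, 102 and 108 normalized counts in treated libraries, against 598, 629 and 602 in control libraries (limma adjusted p = 5.21e-06). The sleep-related hypothalamic gene npvf fell 5.84-fold and adcyap1b, for the neuropeptide Pacap, 2.90-fold (limma adjusted p = 2.87e-05 and 6.84e-05). In contrast vipb, one of the pair of vasoactive intestinal peptide genes, rose 9.69-fold, to 401, 307 and 366 in treated libraries, against 19.0, 46.7 and 45.1 in control libraries (limma adjusted p = 3.97e-05). The other gene of the pair, vip, named after its values were seen, fell 2.38-fold (limma adjusted p = 0.000516). Named after their values were seen, the other genes that rose were pomca, sst1.2, pyyb, asip2b, nucb2a and nucb2b. Of these asip2b, an agouti family gene related to agrp, rose 2.26-fold (log2 fold change 1.17, SE 0.19, limma adjusted p = 0.000527). The other gonadotropin-releasing hormone gene, gnrh2, which encodes the midbrain form, fell 3.51-fold, to 51.6, 36.0 and 39.1 in treated libraries, against 181, 142 and 121 in control libraries (limma adjusted p = 0.000343).

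Genes of the pituitary and the interrenal gland, on which several of these peptides act, were mostly higher in treated larvae. By limma 11 of 17 tested rose, 2 fell and 4 did not pass, against 35.0% risen and 34.3% fallen over all tested genes. The median log2 fold change of these pituitary and interrenal genes was 1.26. Their sum was only 1.12-fold higher in treated larvae. It took 0.00998% to 0.0129% of normalized counts in treated and 0.0102% to 0.0121% in control libraries, so the groups overlapped. The list shares pomca, pcsk1 and nr5a1a with the lists above, of which nr5a1a was not tested. Growth hormone, encoded by gh1, rose 85.5-fold, to 550, 295 and 290 normalized counts in treated libraries, against 6.02, 4.44 and 2.82 in control libraries, and the prolactin gene prl rose 18.6-fold (limma adjusted p = 2.90e-06 and 5.15e-05). The precursor gene of adrenocorticotropic hormone, pomca, whose pituitary cells respond to Crh, had 81.8, 67.5 and 24.8 in treated libraries, against 0, 3.33 and 0 in control libraries. Its control reads number 3, and the ratio of 48.8 has a 95% counting interval of 16.4 to 239. The glycoprotein hormone subunit gene cga and the somatolactin gene smtlb likewise rest on 2 control reads each, with ratios of 42.4 (95% counting interval 11.4 to 355) and 85.7 (23.4 to 713). Both genes that fell were named after their values were seen: nr3c1, the glucocorticoid receptor gene, 1.96-fold, and cyp11c1, for the last step of cortisol synthesis, 1.897-fold (limma adjusted p = 0.000403 and 0.0201).

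**Figure D4:**
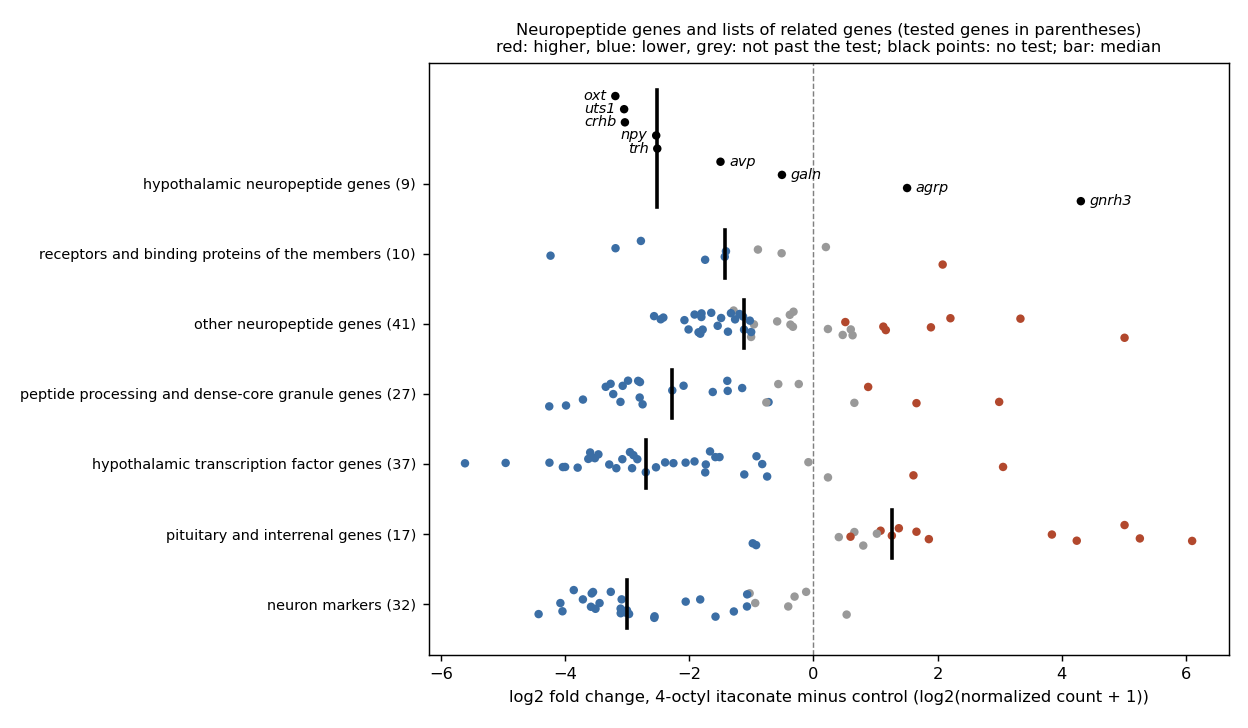
Log2 fold changes (treated minus control) of the 9 neuropeptide genes with enough reads, shown in black and without a test, and of 6 lists of related genes, where red points passed limma's test upward, blue points downward and grey points did not; the bar is each median. The neuropeptide median of -2.52 lies among those of processing genes, hypothalamic transcription factors and neuron markers, and the pituitary and interrenal median of 1.26 lies above 0. The medians of receptor genes and of other neuropeptide genes, -1.42 and -1.12, lie above that of the 9 genes.

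For each member, the most similar gene was the one of 15166 candidates (mean of at least 50 normalized counts) with the smallest root mean square distance between log2 profiles over the 6 libraries, each centred on its own mean. For trh this was rictora, at 0.0596, for galn si:dkey-4c15.14, at 0.0552, for crhb C7H4orf48, at 0.0866, for oxt epb41a, at 0.107, and for agrp foxi3b, an ionocyte transcription factor gene, at 0.124. No gene came as near to gnrh3, whose closest was wu:fb18f06 at 0.605. The closest for avp, npy and uts1 were CABZ01081747.1, CR381540.3 and CR751602.1, at 0.116, 0.0945 and 0.0848. These distances are descriptions over libraries that share the split between groups.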

How the data were processed

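Bead-captured messenger RNA of zebrafish larvae was sequenced in 6 libraries, 3 treated and 3 control. Per the file headers, the deposited signal values are the authors' normalized counts per gene. The submitters' processing notes name GRCz11, DESeq2 without a version, Salmon 1.9.0, STAR 2.7.10a, fastp 0.23.2 and bcl2fastq 2.20.0.422, but the sources used here do not say what each did, how reads of overlapping genes were counted or whether strand was used. Dividing by each library's smallest step gave whole numbers within 0.01 for 100% of values. In control replicate 1 that step, 1.003, is close to 1, but the largest deviation over all libraries was 0.000445.

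The test was limma 3.58.1 (R 4.3.3) on log2(normalized count + 1) (trend, two-sided, Benjamini-Hochberg over 20352 genes, threshold 0.05). Genes with a mean under 10 (4118) were left out. Folds are ratios of group means, and log2 values understate changes of low genes. No gene lengths were used, so levels are not compared between genes. Members and lists were chosen with earlier results of these data known. Named genes are the members, all receptors, up to 4 genes with the smallest p in each other list and the gene with the most similar profile to each member; others were named after seeing values. Count tests on the recovered reads used edgeR 4.0.16 and DESeq2 1.42.0 as alternatives. The limma fit without a block and the edgeR and DESeq2 fits were run on simulated counts, in which far fewer genes changed than here. The other alternative settings were not simulated. Sequences of precursors and promoters were not used here. Python 3.11.15 with matplotlib 3.10.9 drew the figures.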

Additional observations from a re-analysis of the deposited data

How the results depend on the processing

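The 9 tested neuropeptide genes kept the sign of their log2 fold changes under all alternatives run (pseudocounts of 0.5 and 5, no filter, upper-quartile, TMM and quantile scaling, edgeR, DESeq2, a replicate block and each library left out). Values moved by more than the spread between replicates for avp after quantile normalization (-2.03) and, after upper-quartile scaling, for trh (-2.20) and galn (-0.19); that scaling put the median of all genes at 0.33, so galn lay below it as before. Without the filter, which brings in hcrt, the median of the neuropeptide genes was -2.01, against -2.52 with it. Deviations of same-numbered libraries from their group means correlated at -0.02, -0.06 and 0.05 over the tested genes. These values cannot tell whether same-numbered libraries shared a clutch or a day. With a replicate block 6900 genes passed higher and 6779 lower, against 7115 and 6983 without it, and no list count moved by over 1.5 times. Receptor genes called higher numbered 1, and 2 without the filter, 0 after quantile normalization and 0 to 1 with a library left out; those called lower numbered 6, and 10 without the filter, which tests more genes. Pituitary and interrenal genes called lower numbered 2, and 1 after upper-quartile scaling and 1 to 2 with a library left out. Those called higher numbered 11, and 8 to 10 with a library left out. The cause was not tested. The value for mc5ra, not called, was -0.20 after quantile normalization and -0.27 to 0.65 with a library left out. Log2 ratios relative to neuron markers changed sign for oxt, crhb and uts1 with a library left out. They ranged from -0.73 to 0.17, from -0.50 to 0.67 and from -0.26 to 0.31, each lowest without treated replicate 1. With peptide processing genes as the denominator the log2 ratios were -0.75 for oxt, 0.94 for avp, -0.39 for crhb, 0.064 for npy and 4.06 for agrp. For trh, gnrh3, galn and uts1 they were 0.057, 6.83, 2.07 and -0.55. Depth limits hcrt, avp and most receptor genes, which rest on few reads per library.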

Other observations

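In the RefSeq annotation of assembly GRCz12tu, used for gene order only, agrp lies next to the chymotrypsinogen gene named ctrb1 in the files. That pancreatic gene had 58677, 35858 and 23876 normalized counts in treated libraries, against 68.2, 93.3 and 135 in control libraries (log2 fold change 8.58, limma adjusted p = 6.50e-07). In treated libraries ctrb1 was highest in replicate 1 and lowest in replicate 3, as was agrp, but replicate 1 was also the highest treated library for 7 of the 9 tested members and replicate 3 the lowest for 7. The part of reads from ctrb1 in the agrp values was not tested. On its other side atp6v0d1 fell (log2 fold change -2.04, limma adjusted p = 4.62e-06). The neighbours of gnrh3, ecd and mgmt, at 0.17 and -0.22 on the log2 scale, lay short of the threshold (limma adjusted p = 0.437 and 0.405). An overlapping gene was listed for npy, named mpp6b in the files, which did not pass (log2 fold change -0.94, limma adjusted p = 0.0977), and strand use in counting is not given in the sources used here. The genes next to crhb and uts1, trim55b and trim54, which serve muscle, rose while crhb and uts1 were lower (by 2.67 and 1.95 on the log2 scale, limma adjusted p = 2.93e-05 and 0.0216).

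Among the cart genes, which encode an appetite-reducing peptide, cart2 and cart4 fell 4.02-fold and 3.15-fold (limma adjusted p = 0.000228 and 0.000247), whereas cart3 had 317, 45.0 and 39.1 normalized counts in treated libraries, against 54.1, 85.6 and 74.7 in control libraries, and did not pass (adjusted p = 0.778). Treated replicate 1 alone lay above the control range of cart3.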
